A study of Mus musculus with 12 samples.

Results

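The 10 pericentral Wnt/beta-catenin target genes were followed across control, APAP-vehicle and APAP-hAAM livers. They are Glul, Slc1a2, Oat, Axin2, Lgr5, Rnf43, Znrf3, Tbx3, Lect2 and Rhbg. They were taken by name and matched to Ensembl identifiers, which found all 10 among the 24187 genes counted and all 10 among the 22581 genes tested. The names were chosen by the measured levels of these genes in the same livers, mainly their difference between APAP and control livers. Levels and differences from control are therefore descriptions, and any call of these genes against control carries no weight as a test. The study asked how human alternatively activated macrophages (hAAMs) act on a liver injured by acetaminophen (APAP, paracetamol), and measured whole liver by bulk RNA sequencing in mice labelled C57BL/6J (the methods also name C57BL6/JOlaHsd). Control mice (n = 3) were labelled as having no injury and no treatment. Mice of both other groups received 350 mg/kg APAP by their labels, followed by PBS vehicle (APAP-vehicle, n = 5) or hAAM cells (APAP-hAAM, n = 4).

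By the methods, mice were aged 10 to 12 weeks, fasted for 12 h before APAP and treated 16 h after it. Livers of the severe injury model were collected 32 h after APAP by its legend and 36 h by the methods, and that model is given with 500 mg/kg, against the 350 mg/kg of the labels. None of these times is stated for the sequenced livers separately, nor whether control mice were fasted. The hAAMs were human monocyte-derived cells placed in mice with their own immune system, while reads were aligned to the mouse genome. Bulk RNA does not separate cell types, so fewer cells of a type and less RNA per cell cannot be told apart in any value given here.

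Hepatocytes are arranged along a blood path from the portal vein to the central vein, and carry out different tasks along it. Endothelial cells beside the central vein release Wnt ligands and R-spondin, which keep beta-catenin active in the hepatocytes nearest to them and switch on a pericentral programme of glutamine synthesis, ammonium uptake and drug metabolism. APAP is turned into its toxic product by cytochrome P450 enzymes of the same zone, which is where APAP necrosis is known to begin.

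Total counts per liver ranged from 47391650 to 74056505. Counts were scaled by TMM, a method that sets libraries on a common scale by the bulk of their genes, and are given as CPM (counts relative to the scaled library total). Scaling by library size alone raised the median log2 fold change over all genes to 0.36 in APAP-vehicle and 0.32 in APAP-hAAM livers against control. APAP-vehicle replicate 3 and APAP-hAAM replicate 4 differed by only 1.19 times counting noise over genes with at least 100 counts, while the other 35 pairs of APAP livers differed by 2.52 to 5.55 times. Whether they are separate animals cannot be told from these data, and n = 5 and n = 4 count each of them as labelled. Since their labels name different treatments, neither was moved or merged, and results that rest on them are given without them too. APAP-hAAM replicate 3 stood apart in many of the genes below and was treated in the same way. The summed level of 10 hepatocyte markers was 101327 to 127871 CPM in control, 96079 to 119701 CPM in APAP-vehicle and 97492 to 123824 CPM in APAP-hAAM livers, and none of the 10 was at 0, as the tissue label implies.

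In control livers the programme was led by its metabolic members. Per kilobase of exon (RPKM, the scale on which different genes can be compared), glutamine synthetase Glul was highest at 293 ± 88.0 RPKM (SD, n = 3), followed by Oat at 163 ± 38.4 RPKM, Lect2 at 44.4 ± 10.7 RPKM, Slc1a2 at 15.6 ± 3.18 RPKM and Tbx3 at 10.4 ± 5.63 RPKM. The genes of the pathway itself were lower, with Rnf43 at 4.36 ± 1.37 RPKM, Axin2 at 2.71 ± 1.19 RPKM, Znrf3 at 2.55 ± 0.752 RPKM and Lgr5 at 1.27 ± 0.277 RPKM. The ammonium transporter gene Rhbg was lowest at 0.712 ± 0.153 RPKM. The ranges of the control livers separated Oat from Lect2, Lect2 from Slc1a2, Znrf3 from Lgr5 and Lgr5 from Rhbg, while the other neighbours in this order overlapped. All 10 genes were thus detected in every control liver, as the pericentral label requires, but bulk tissue cannot show where in the lobule their RNA lay.

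After APAP the order of the levels was different. With vehicle, Lect2 led at 59.4 ± 7.44 RPKM (SD, n = 5), Glul lay at 15.1 ± 2.81 RPKM and Oat at 14.2 ± 2.98 RPKM, and these were followed by Rnf43 at 3.56 ± 0.648 RPKM and Znrf3 at 2.27 ± 0.214 RPKM. Slc1a2 moved from place 4 to place 9, at 0.0640 ± 0.0504 RPKM, where its range overlapped those of Lgr5 above it and Rhbg below it. Glul and Oat overlapped as well, and so did Znrf3 with Tbx3 and Tbx3 with Axin2. With hAAMs, Lect2 also led, at 49.8 ± 14.2 RPKM (SD, n = 4), and overlapped Oat at 24.6 ± 19.0 RPKM. That overlap came from replicate 3 alone, with 52.9 RPKM of Oat and 36.9 RPKM of Lect2. Without it Oat had 15.2 ± 2.92 RPKM (SD, n = 3) and at most 18.5 RPKM, below the lowest Lect2 liver at 38.8 RPKM.

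Beta-catenin acts at DNA through TCF/LEF factors, which bind a core that can be written as CTTTGAA or CTTTGAT. The 250 bases before the RefSeq start (GRCm38.p6) were searched for these letters on both strands in the 6 members for which a window was given, Glul, Slc1a2, Oat, Axin2, Rnf43 (with 2 windows) and Lect2. Of all 32851 such windows of the genome, 7.48% held a match. Windows of 2 members did, and they are shown because one belongs to the gene with the lowest log2 fold change of the 10 with vehicle and the other to a gene with a higher mean after APAP. With hAAMs, Slc1a2 and Glul lay side by side at -4.15 and -4.17, but at -7.53 and -4.37 without APAP-hAAM replicate 3. Both windows are on GRCm38.p6 and run 5′ to 3′ along the gene's own strand, with the match in capitals, which is CTTTGAT on the opposite strand. The Slc1a2 window is chr2:102706188-102706437 on the plus strand, with the match at 207 to 201 bases before a start that lies 47779 bases inside the gene, so it belongs to an internal start. The Lect2 window is chr13:56548539-56548788 on the minus strand, with the match at 32 to 26 bases before the start.
Slc1a2: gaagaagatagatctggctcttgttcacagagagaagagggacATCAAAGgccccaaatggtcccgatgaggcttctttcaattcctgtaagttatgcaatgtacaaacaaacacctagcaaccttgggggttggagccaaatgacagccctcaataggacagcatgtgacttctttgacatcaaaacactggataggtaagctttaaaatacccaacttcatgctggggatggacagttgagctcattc
Lect2: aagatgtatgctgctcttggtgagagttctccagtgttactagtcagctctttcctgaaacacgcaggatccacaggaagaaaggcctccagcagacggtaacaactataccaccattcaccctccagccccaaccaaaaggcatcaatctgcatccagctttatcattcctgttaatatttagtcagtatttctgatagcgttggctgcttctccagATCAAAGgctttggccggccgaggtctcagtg
A match is a description of letters and not a bound site. The windows of Glul, Oat and Axin2, which were low after APAP, held no match, which says only that these letters are not in those 250 bases.

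All 9 APAP livers lay below all 3 control livers in 7 of the 10 genes, namely Glul, Slc1a2, Oat, Axin2, Lgr5, Tbx3 and Rhbg, against 11.4% of all genes tested. Rnf43, Znrf3 and Lect2 overlapped control in at least 1 APAP group. With edgeR's quasi-likelihood test at an FDR of 0.05, the same 7 genes were called lower with vehicle, where 14.8% of all genes were called lower, and with hAAMs, where 9.96% were. Since the genes were named with this contrast in view, the calls and their counts carry no weight of their own. The median log2 fold change of the 10 genes was -3.11 with vehicle and -2.38 with hAAMs (-2.92 without APAP-hAAM replicate 3), beside 0.01 and 0.02 over all genes. Both contrasts use the same control livers.

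**Figure D1:**
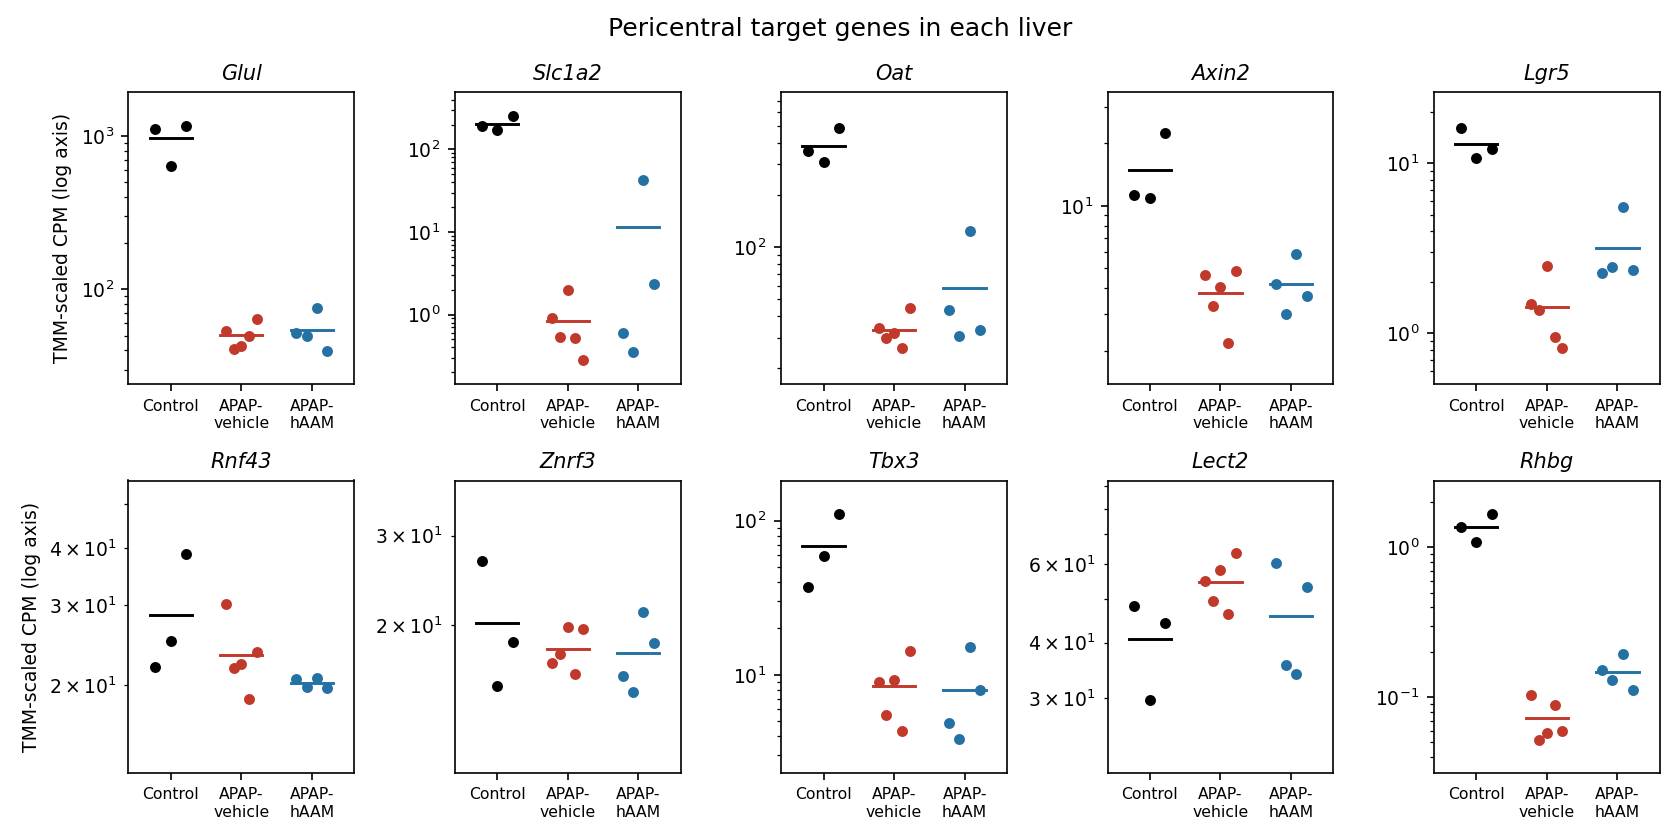
CPM of each gene in each liver on a log axis, with control (n = 3, black), APAP-vehicle (n = 5, red) and APAP-hAAM (n = 4, blue) livers as points and each group's mean as a line; livers of a group are in replicate order from left to right. The APAP livers lie below every control liver in 7 genes, and overlap control in Znrf3, Lect2 and, with vehicle, Rnf43.

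Among the metabolic genes, Glul (ENSMUSG00000026473, chr1:153899944-153909723, plus strand of GRCm38) makes glutamine from glutamate and ammonium. Its level was 1113, 636 and 1168 CPM in control replicates 1 to 3. It was 53.8, 40.8, 42.5, 50.0 and 63.9 CPM in APAP-vehicle replicates 1 to 5, and 52.0, 49.5, 75.4 and 39.9 CPM in APAP-hAAM replicates 1 to 4. Both APAP groups were thus far under the lowest control liver and lay across each other. The log2 fold change was -4.27 (SE 0.244) with vehicle and -4.17 (SE 0.266) with hAAMs, and 4.10% to 7.75% of the control mean was left in the 9 APAP livers.

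Slc1a2 (ENSMUSG00000005089, chr2:102658659-102790784, plus strand) encodes a glutamate transporter that supplies the substrate of glutamine synthetase. Control livers held 190, 173 and 252 CPM. APAP-vehicle livers held 0.912, 0.540, 1.96, 0.517 and 0.281 CPM, which came from 19 to 101 counts. APAP-hAAM livers held 0.605, 0.352, 42.9 and 2.37 CPM, from 32, 19, 2214 and 127 counts. Replicate 3 alone kept a sizeable share, 20.9% of the control mean and still under every control liver, while the other 8 APAP livers kept 0.137% to 1.16%. The log2 fold change was -7.97 (SE 1.34) with vehicle. With hAAMs it was -4.15 (SE 1.22) over 4 livers and -7.53 (SE 0.745) without replicate 3. This gene left the set called lower with hAAMs when any 1 control liver or APAP-hAAM replicate 1, 2 or 4 was left out. It also left when APAP-vehicle replicate 3 and APAP-hAAM replicate 4 were left out together, and in a fit of only the groups compared.

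Oat (ENSMUSG00000030934, chr7:132557478-132576398, minus strand) encodes ornithine aminotransferase, a mitochondrial enzyme on the way from ornithine to glutamate. Its level was 359, 308.5 and 484 CPM in control livers. It was 34.4, 29.8, 32.1, 26.3 and 44.8 CPM with vehicle, and 43.7, 30.7, 125 and 33.2 CPM with hAAMs. The pattern was that of Slc1a2 on a smaller scale, with APAP-hAAM replicate 3 above the other APAP livers and under every control liver. On the log2 scale Oat differed from control by -3.52 (SE 0.402) with vehicle and -2.72 (SE 0.425) with hAAMs, or -3.42 (SE 0.235) without replicate 3. The Oat locus overlaps the annotated span of Fgfr2 on the same strand, and Fgfr2 had 1901 to 4694 counts. Reads in the overlap may have been dropped or counted for either gene. The methods name the counting function but not how it treats such reads.

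Rhbg (ENSMUSG00000104445, chr3:88242874-88254709, minus strand) encodes an ammonium transporter of the hepatocyte membrane. It had few reads, with 72, 69 and 85 counts in control, 6, 3, 3, 6 and 4 counts in APAP-vehicle and 8, 7, 10 and 6 counts in APAP-hAAM livers. On the CPM scale this was 1.09 to 1.68 in control, 0.0522 to 0.103 with vehicle and 0.112 to 0.194 with hAAMs. The 3 groups did not overlap, with control highest and vehicle lowest, at a depth where the APAP groups differ by a few counts. Against control, the log2 fold change of Rhbg was -4.20 (SE 0.256) with vehicle and -3.21 (SE 0.257) with hAAMs. DESeq2 gave -4.25 and -3.24 with larger SEs of 0.400 and 0.370. Rhbg passed the low-count filter through its control livers, so its calls against control carry no weight.

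Axin2 (ENSMUSG00000000142, chr11:108920349-108950783, plus strand) encodes a scaffold of the complex that destroys beta-catenin, and is itself switched on by the pathway as negative feedback. Its level was 11.3, 11.0 and 22.5 CPM in control livers. It was 4.66, 3.29, 4.07, 2.17 and 4.84 CPM with vehicle, and 4.22, 3.00, 5.87 and 3.66 CPM with hAAMs. Control replicate 3 lay above the other control livers, and the APAP groups covered much the same range below them. Against control it gave a log2 fold change of -1.97 (SE 0.299) with vehicle and -1.83 (SE 0.320) with hAAMs, the smallest of the 7 low genes.

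Lgr5 (ENSMUSG00000020140, chr10:115450311-115587780, minus strand) encodes a receptor for R-spondins, which strengthen Wnt signals. Control livers held 16.2, 10.7 and 12.2 CPM. APAP-vehicle livers held 1.48, 1.38, 2.50, 0.946 and 0.814 CPM, and APAP-hAAM livers 2.25, 2.46, 5.56 and 2.37 CPM. Only APAP-vehicle replicate 3 reached into the APAP-hAAM range, and its near-identical partner, APAP-hAAM replicate 4, lay just under it. Lgr5 differed from control by -3.21 (SE 0.367) with vehicle and -2.04 (SE 0.380) with hAAMs on the log2 scale.

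Rnf43 (ENSMUSG00000034177, chr11:87662722-87735539, plus strand) and Znrf3 (ENSMUSG00000041961, chr11:5276324-5444847, minus strand) encode related membrane ubiquitin ligases that remove Frizzled receptors, and are the targets that R-spondin and Lgr receptors hold back. Rnf43 ranged from 21.9 to 38.8 CPM in control, from 18.7 to 30.2 CPM with vehicle and from 19.7 to 20.7 CPM with hAAMs. Znrf3 ranged from 15.2 to 26.7 CPM in control, from 15.97 to 19.8 CPM with vehicle and from 14.7 to 21.2 CPM with hAAMs. Unlike Axin2 and Lgr5, both overlapped control with vehicle, and only the APAP-hAAM values of Rnf43 lay below all control livers. Rnf43 had a log2 fold change of -0.29 (SE 0.174) with vehicle and -0.50 (SE 0.183) with hAAMs, while library size alone gave 0.06 with vehicle. Without control replicate 3 the Rnf43 values were -0.009 and -0.21. For Znrf3 the log2 fold change was -0.17 (SE 0.168) and -0.20 (SE 0.176), and library size alone turned both to 0.18 and 0.09. Leaving out control replicate 1 also turned both Znrf3 values, to 0.09 and 0.06. With DESeq2, which called more of all genes lower with hAAMs (12.2%), the count among the 10 was 8, the added gene being Rnf43. As the contrast with control named the genes, that call carries no weight.

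Tbx3 (ENSMUSG00000018604, chr5:119670669-119684724, plus strand) encodes a T-box transcription factor of pericentral hepatocytes. Control livers differed widely, at 37.3, 59.2 and 110 CPM. APAP-vehicle livers held 8.998, 5.50, 9.22, 4.30 and 14.2 CPM, and APAP-hAAM livers 4.86, 3.83, 15.1 and 7.99 CPM. Even the highest APAP livers, vehicle replicate 5 and hAAM replicate 3, stayed under the lowest control liver. In log2 terms Tbx3 differed from control by -3.02 (SE 0.479) with vehicle and -3.12 (SE 0.521) with hAAMs.

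Lect2 (ENSMUSG00000021539, chr13:56542464-56548502, minus strand) encodes a chemotaxin that hepatocytes secrete into blood. It ranged from 29.7 to 48.4 CPM in control, from 46.3 to 63.6 CPM with vehicle and from 33.9 to 60.3 CPM with hAAMs. It was the single gene of the 10 with a higher mean in both APAP groups, although the groups overlapped. Its log2 fold change was 0.42 (SE 0.208) with vehicle and 0.17 (SE 0.215) with hAAMs. Without control replicate 2 these became 0.23 and -0.02, so the direction with hAAMs rested on that liver. Under library size alone the log2 fold change with vehicle was 0.77. With Lect2 added, 8 of the 10 genes were then called with vehicle, where that scaling called 43.2% of all genes in either direction. That call, too, is on the contrast that named the genes and carries no weight.

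Several loci overlap other genes, and although the library kit was directional, whether the counting used strand is not given in the sources used here. Antisense genes with reads lay over Glul (Teddm2, 3 to 150 counts), Slc1a2 (Gm13872, 0 to 150 counts), Axin2 (Gm11670, 0 to 30 counts), Lgr5 (A930009A15Rik, 3 to 69 counts) and Tbx3 (Tbx3os1, 0 to 414 counts). Rnf43 overlaps 1110028F11Rik on the same strand (40 to 169 counts) and Gm25968 on the other (2 to 37 counts).

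The level left after APAP was set on the control mean as 100%. Among the 7 low genes, Slc1a2 stood apart with vehicle, at 0.137% to 0.953%, while the other 6, from 3.79% in Rhbg to 32.5% in Axin2, overlapped their neighbours. With vehicle, Slc1a2 kept a mean of 0.410%, Glul 5.17%, Rhbg 5.24%, Oat 8.71%, Lgr5 10.9%, Tbx3 12.3% and Axin2 25.5%. With hAAMs, these means were 5.63% for Slc1a2, 5.57% for Glul, 10.6% for Rhbg, 15.1% for Oat, 24.2% for Lgr5, 11.5% for Tbx3 and 28.1% for Axin2. The APAP-hAAM livers spanned 0.172% to 20.9% for Slc1a2, and without replicate 3 the mean left was 0.541% for Slc1a2, 9.34% for Oat, 18.1% for Lgr5 and 8.08% for Tbx3. APAP-hAAM replicate 3 was the highest of the 9 APAP livers in each of these 7 genes and in Znrf3, 8 of 10, against 20.4% of all genes and 40.6% of the genes called lower with vehicle. It kept 20.9% of control for Slc1a2, 7.75% for Glul, 14.0% for Rhbg, 32.5% for Oat, 42.6% for Lgr5, 21.9% for Tbx3 and 39.4% for Axin2.

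**Figure D2:**
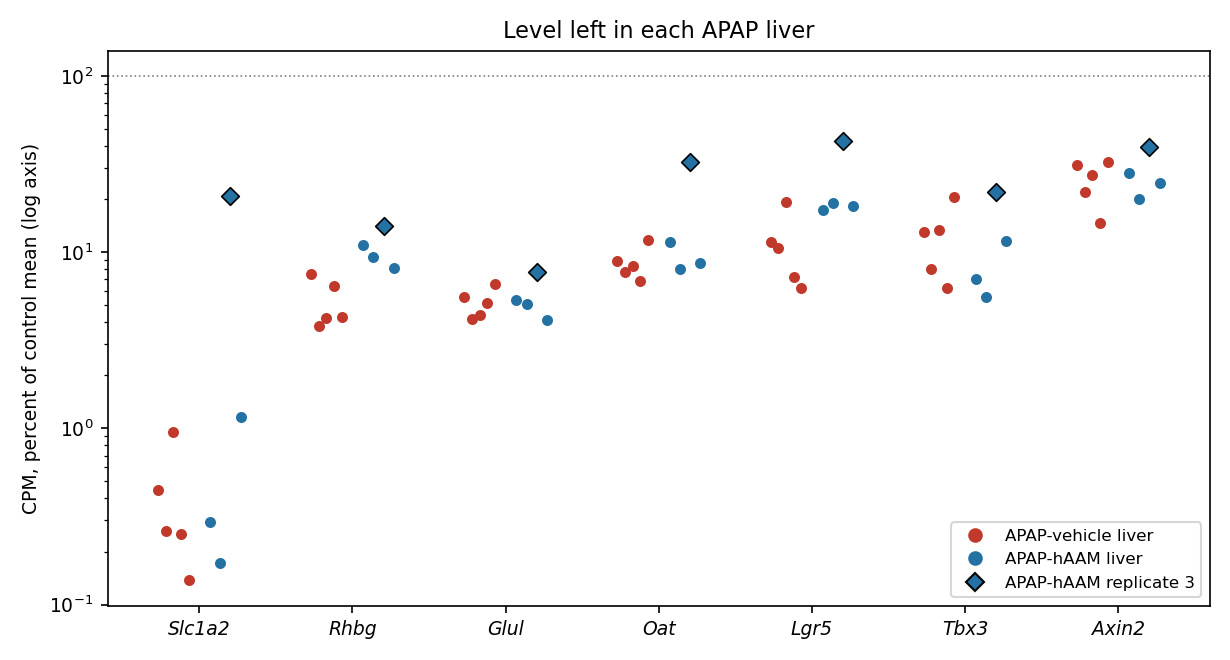
CPM of the 7 low genes in each APAP liver as a percent of the control mean, on a log axis, for APAP-vehicle (red) and APAP-hAAM (blue) livers, with APAP-hAAM replicate 3 as diamonds; the dotted line is the control mean. The diamond is the highest point of every gene, from 7.75% in Glul to 42.6% in Lgr5.

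The same liver also led in other hepatocyte genes. It was the highest APAP liver in 18 of 22 periportal genes, 8 of 17 further pericentral genes, 7 of 10 hepatocyte markers and 4 of 4 T or NK cell markers, whose sum was only 2.13 CPM. It was highest in 0 of 10 endothelial, 0 of 6 stellate cell and 0 of 5 cholangiocyte markers. Its summed hepatocyte markers were the highest of its group, at 123824 CPM, inside the control range of 101327 to 127871 CPM. Its summed endothelial markers were the lowest of its group, at 364 CPM, against 353 to 402 CPM in control and 404 to 533 CPM with vehicle. Its summed stellate cell markers were likewise lowest, at 377 CPM, against 281 to 369 CPM in control and up to 721 CPM with hAAMs. What part cell makeup had in its higher pericentral levels was not tested.

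Between livers of a group the genes did not follow 1 order. Among APAP-vehicle livers, replicate 5 was highest in 5 of the 10 genes and replicate 4 lowest in 6, against 19.4% and 20% of all genes. Among APAP-hAAM livers, replicate 3 was highest in 9 of 10 and replicate 2 lowest in 5, against 29.7% and 24.7% of all genes. Replicate 3 was highest among control livers in 7 of 10, against 30.2% of all genes.

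The comparison of the treatments asked whether hAAMs changed the level of these genes in injured liver. None of the 10 genes differed between APAP-hAAM and APAP-vehicle livers at an FDR of 0.05 in edgeR's test over all genes, in which 0 of the 22581 genes passed (0%). DESeq2 called 1 gene in all and 0 of the 10, with a smallest FDR among them of 0.438. At an unadjusted p under 0.05, edgeR gave 4 of the 10, Slc1a2, Oat, Lgr5 and Rhbg, against 5.02% of all genes, and all 4 were higher with hAAMs. Without APAP-hAAM replicate 3 it gave 1 of the 10, Lgr5, against 3.78% of all genes. The median log2 fold change of the 10 genes was 0.12 and turned to -0.08 without that liver, while that of all genes was 0.00 and 0.01.

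For Slc1a2 the log2 fold change between the treatments was 3.81 (95% interval 1.27 to 6.35, edgeR FDR 0.966), with 2 APAP-hAAM livers inside the vehicle range and 2 above it. It was 0.44 (SE 0.639) without APAP-hAAM replicate 3. Oat gave 0.80 (95% interval 0.00278 to 1.59, edgeR FDR 0.966) and 0.10 (SE 0.192) without that liver. The higher means of both genes with hAAMs therefore rested on 1 liver of 4.

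Lgr5 gave 1.16 (95% interval 0.406 to 1.92, edgeR FDR 0.966), and 0.74 (SE 0.301) without APAP-hAAM replicate 3, at an unadjusted edgeR p of 0.0308 and an FDR of 0.9995. Rhbg gave 0.99 (95% interval 0.327 to 1.65, edgeR FDR 0.966), and 0.83 (SE 0.329, unadjusted edgeR p 0.0564) without replicate 3. DESeq2 gave Rhbg 1.01 with an SE of 0.457, against 0.305 with edgeR, so the edgeR interval may be too narrow at these counts. Rhbg was the single member whose APAP-hAAM livers all lay above all APAP-vehicle livers, against 0.709% of all genes, and its counts were 6 to 10 against 3 to 6. Without the near-identical livers, Lgr5 separated too, and its log2 fold change was 1.57 (SE 0.339) at an edgeR FDR of 0.471. With those livers left out, 4.32% of all genes separated in this direction, and 0 of 22477 genes passed the FDR threshold.

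The other 6 genes had intervals that included 0. Glul gave 0.11 (95% interval -0.361 to 0.580) and Axin2 0.14 (95% interval -0.484 to 0.759). Tbx3 gave -0.09 (95% interval -1.07 to 0.893), Rnf43 -0.21 (95% interval -0.559 to 0.147), Znrf3 -0.03 (95% interval -0.367 to 0.307) and Lect2 -0.25 (95% interval -0.665 to 0.158). Their edgeR FDR values lay from 0.973 to 0.999. The intervals for Glul, Rnf43, Znrf3 and Lect2 stay within 0.665 on the log2 scale, whereas that of Tbx3 leaves room for a change of about 1 either way.

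**Figure D3:**
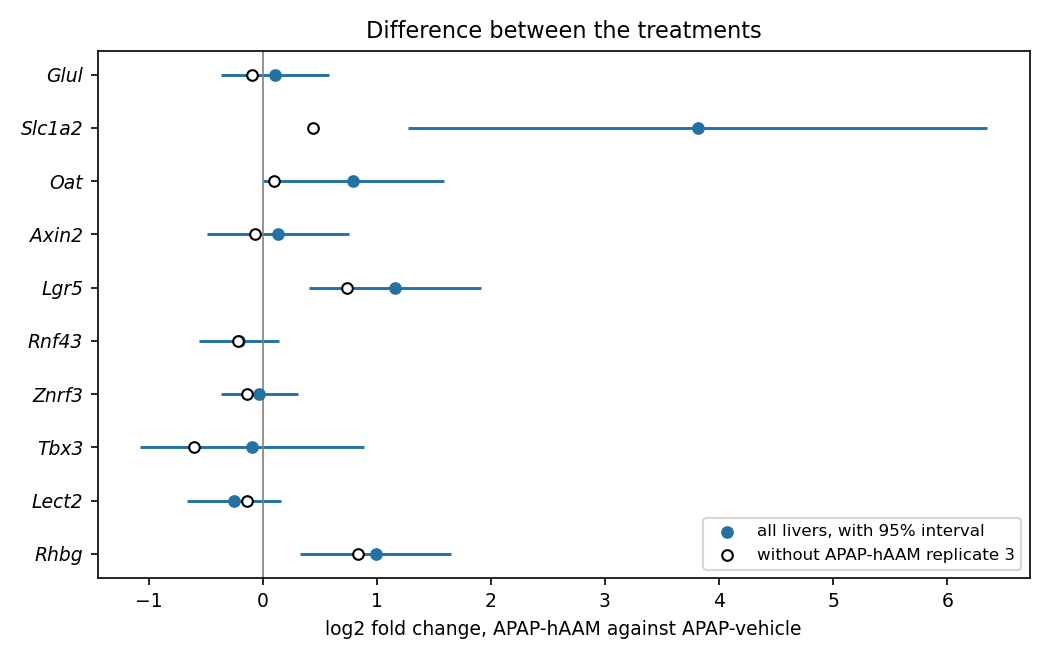
The log2 fold change of each gene in APAP-hAAM (n = 4) against APAP-vehicle (n = 5) livers, as filled points with 95% intervals, and the value without APAP-hAAM replicate 3 as open circles; the vertical line marks 0. Slc1a2 goes from 3.81 to 0.44 and Oat from 0.80 to 0.10 when that liver is left out, while Lgr5 and Rhbg stay at 0.74 and 0.83.

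Other genes of the pathway and of liver zonation were described from 7 lists of 129 genes, of which 105 were tested. The lists were drawn up with earlier results of these livers known, so their calls are no independent evidence. With vehicle, 16 were called higher and 21 lower than control (35.2%, against 29.8% of all genes), and with hAAMs 10 higher and 15 lower (23.8%, against 20.7%). These counts of 37 and 25 depended on single livers, with 22 for vehicle without control replicate 1, and for hAAMs 9 without control replicate 3, 14 without control replicates 1 or 2 in turn and 15 without APAP-hAAM replicate 2. Library size alone turned the split to 37 higher and 14 lower with vehicle (48.6%, against 43.2% of all genes) and to 28 and 7 with hAAMs (33.3%, against 32.5%). None of the 105 passed between the treatments, where 0 of all genes did with edgeR.

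Ligands were not called in either APAP group, with 0 of 9 tested under TMM, where 29.8% (vehicle) and 20.7% (hAAMs) of all genes were called. Library size alone called 3 ligands higher with vehicle and 2 with hAAMs. Without APAP-hAAM replicate 3, 1 ligand was called higher with hAAMs. Wnt2, Wnt9b and Rspo3 are the signals of the central vein endothelium. Wnt2 had 2.03 ± 0.927 CPM (SD, n = 3) in control, 1.76 ± 0.458 CPM with vehicle (n = 5) and 1.43 ± 0.406 CPM with hAAMs (n = 4). Wnt9b had 1.53 ± 0.551, 1.81 ± 0.705 and 1.38 ± 0.432 CPM in the same groups. Rspo3 had 4.35 ± 0.146, 3.88 ± 0.686 and 3.96 ± 1.07 CPM. The log2 fold changes of the 3 with vehicle lay from -0.20 to 0.25 (edgeR FDR 0.558 to 0.664), and all 3 were above 0 under library size alone. Of 10 liver endothelial markers, 3 were higher with vehicle and 2 with hAAMs, where 15% and 10.7% of all genes were higher, and library size alone called 7 and 3. Without APAP-hAAM replicate 3, 3 were higher and 1 was lower with hAAMs. Those higher with vehicle included Lyve1, up by 1.29 on the log2 scale (SE 0.306, edgeR FDR 0.00869), and Cdh5, up by 1.01 (SE 0.240, edgeR FDR 0.00900). Kdr, Stab2, Clec4g, Fcgr2b, Thbd, Kit and Cdh13 gave -0.10, 0.23, -0.58, 0.19, 1.08, 0.11 and 0.09 and did not pass.

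Receptors went both ways, with 6 of 16 higher and 4 lower with vehicle, and 3 and 3 with hAAMs. Of all genes, 15% were higher and 14.8% lower with vehicle, and 10.7% and 9.96% with hAAMs. Library size alone gave 8 receptors higher and 2 lower with vehicle, and 8 and 1 with hAAMs. The Frizzled genes Fzd5 and Fzd8 rose by 0.62 (SE 0.112, edgeR FDR 0.00219) and 0.57 (SE 0.159, edgeR FDR 0.0182) on the log2 scale with vehicle. Fzd7 fell by 0.79 (SE 0.163, edgeR FDR 0.00424). Lgr4, the Lgr5 relative that hepatocytes express along the whole lobule, fell by 0.78 (SE 0.134, edgeR FDR 0.00177) from a control level of 107 ± 10.1 CPM (SD, n = 3). The co-receptor gene Lrp6 fell by 0.53 (SE 0.0809, edgeR FDR 9.3e-04), and by 0.19 at an FDR of 0.0602 under library size alone. The fall of Lgr4 was thus small beside the -3.21 of Lgr5 in the same livers.

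The core of the pathway gave small values. Of 21 genes of the destruction complex, beta-catenin and its nuclear partners, 1 was higher and 2 were lower in each APAP group. Shares over all genes were 15% higher and 14.8% lower with vehicle, and 10.7% and 9.96% with hAAMs. Library size alone called 10 of the 21 higher and 0 lower with vehicle. Btrc, which marks beta-catenin for destruction, rose by 0.36 (SE 0.0640, edgeR FDR 0.00195) with vehicle. Beta-catenin itself, Ctnnb1, gave -0.17 (SE 0.0870, edgeR FDR 0.156), Apc -0.12 (SE 0.0607, edgeR FDR 0.148) and Tcf7l2 -0.01 (SE 0.0814, edgeR FDR 0.967), and under library size alone all 3 were above 0 and Apc and Tcf7l2 passed the threshold as higher, at edgeR FDR values of 0.0260 and 0.00615. The Dishevelled genes Dvl1 and Dvl3 gave -0.30 and -0.24 at edgeR FDR values of 0.0214 and 0.0282, and were also above 0, at 0.04 and 0.11, under library size alone.

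Among inhibitors, 3 of 11 were higher and 1 was lower with vehicle, where 15% and 14.8% of all genes were. Library size alone gave 5 and 1. The Wnt-binding protein gene Frzb rose by 1.27 (SE 0.360, edgeR FDR 0.0203) and Ctnnbip1, whose product blocks beta-catenin from TCF, by 0.59 (SE 0.151, edgeR FDR 0.0125). The other higher gene was Apcdd1, with a mean of 0.143 CPM in control and 0.455 CPM with vehicle. It passed the low-count filter through its APAP livers, so its call carries no weight here. Notum, a Wnt deacylase that the pathway switches on in pericentral hepatocytes, fell by 1.57 (SE 0.450, edgeR FDR 0.0214) with vehicle. With hAAMs Notum gave -1.27 (SE 0.477, edgeR FDR 0.0778). The feedback gene Nkd1 gave -0.33 (SE 0.139, edgeR FDR 0.0902) with vehicle and -0.52 (SE 0.146, edgeR FDR 0.0262) with hAAMs, but 0.02 and -0.21 (edgeR FDR 0.931 and 0.348) under library size alone.

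Wnt targets known from other tissues did not share 1 direction, with 3 of 9 higher and 2 lower with vehicle, where 15% and 14.8% of all genes were. Library size alone gave 4 and 2. One of the lower genes was Sp5, a direct target in many tissues, which had 36, 58 and 95 counts in control, 3 to 10 counts with vehicle and 1 to 14 counts with hAAMs. It passed the low-count filter through its control livers, so its call carries no weight here. Ppard fell by 1.55 (SE 0.241, edgeR FDR 0.00108). Myc rose by 1.52 (SE 0.356, edgeR FDR 0.00834) and Cd44 by 1.80 (SE 0.378, edgeR FDR 0.00478). The cyclin gene Ccnd1 gave 0.41 (SE 0.317, edgeR FDR 0.351). Cd44 is also made by blood cells, and 4 of 8 macrophage markers were higher with vehicle (6 of 8 under library size alone), where 15% of all genes were. Among these 4 was Ccr2 at 2.62 (SE 0.467, edgeR FDR 0.00211), while Adgre1, Csf1r, Clec4f and Timd4 gave 0.32, 0.35, -0.48 and -0.07 and did not pass. The summed macrophage markers were 214 to 250 CPM in control and 265 to 441 CPM with vehicle, and their part in the rise of Cd44 was not tested.

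Of 17 tested pericentral genes outside the 10, 10 were lower and 2 higher with vehicle, with a list median of -0.99, where 14.8% of all genes were lower. With hAAMs 6 were lower, with a median of -0.68, where 9.96% of all genes were, and without APAP-hAAM replicate 3 it was 7, with a median of -1.06. Under library size alone, 7 were lower and 2 higher with vehicle, and 5 and 2 with hAAMs. Cyp2e1, the main enzyme of APAP activation, fell by 2.37 (SE 0.654, edgeR FDR 0.0177) with vehicle, from 3432 ± 769 CPM (SD, n = 3) to 662 ± 430 CPM (n = 5). With hAAMs it had 1105 ± 1013 CPM (n = 4), of which replicate 3 held 2464 CPM, and gave -1.63 on the log2 scale (SE 0.693, edgeR FDR 0.114). Cyp1a2 fell by 2.06 (SE 0.716, edgeR FDR 0.0475) with vehicle and had an FDR of 0.0632 under library size alone. The carboxylate transporter gene Slc13a3 fell by 2.94 (SE 0.430, edgeR FDR 7.7e-04). Against the direction of the list, Por, the electron donor of cytochrome P450 enzymes, rose by 0.78 (SE 0.214, edgeR FDR 0.0173), and Cyp4a14, a fatty acid hydroxylase under PPAR-alpha, rose by 4.01 (SE 1.30, edgeR FDR 0.0352).

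Of 22 periportal genes, 1 was higher and 2 were lower with vehicle, where 15% and 14.8% of all genes were. The log2 fold changes of the 22 went both ways, from -1.58 to 1.33 with a median of 0.01, beside 0.01 over all genes. With hAAMs 2 of the 22 were higher and 1 was lower, where 10.7% and 9.96% of all genes were. The list median with hAAMs was 0.23 and turned to -0.05 without APAP-hAAM replicate 3. Library size alone gave 5 higher and 2 lower with vehicle, and 5 and 0 with a median of 0.49 with hAAMs. The amino acid enzyme gene Sds rose by 1.33 (SE 0.392, edgeR FDR 0.0240), while Cyp2f2 fell by 1.58 (SE 0.444, edgeR FDR 0.0195) and Fbp1, of gluconeogenesis, by 1.01 (SE 0.177, edgeR FDR 0.00192). With hAAMs, Hsd17b13 rose by 0.55 (SE 0.152, edgeR FDR 0.0256). Among hepatocyte markers that serve the whole lobule, 4 of 10 were lower with vehicle, where 14.8% of all genes were. Library size alone gave 3 lower and 1 higher. The largest falls were Fgb at -1.05 (SE 0.167, edgeR FDR 0.00120) and Ambp at -0.90 (SE 0.157, edgeR FDR 0.00186), beside -4.27 for Glul in the same livers. Alb, Apoa1, Ttr, Apoc3, Trf and Apob gave 0.15, 0.15, -0.06, -0.17, -0.34 and -0.43 and did not pass. Of 6 stellate cell genes, 3 were higher with vehicle (4 under library size alone), where 15% of all genes were, with Col1a1 at 2.41 (SE 0.634, edgeR FDR 0.0142) and Pdgfrb at 1.37 (SE 0.282, edgeR FDR 0.00434). Lrat, Reln and Dcn gave 0.10, -0.30 and -0.01 and did not pass.

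**Figure D4:**
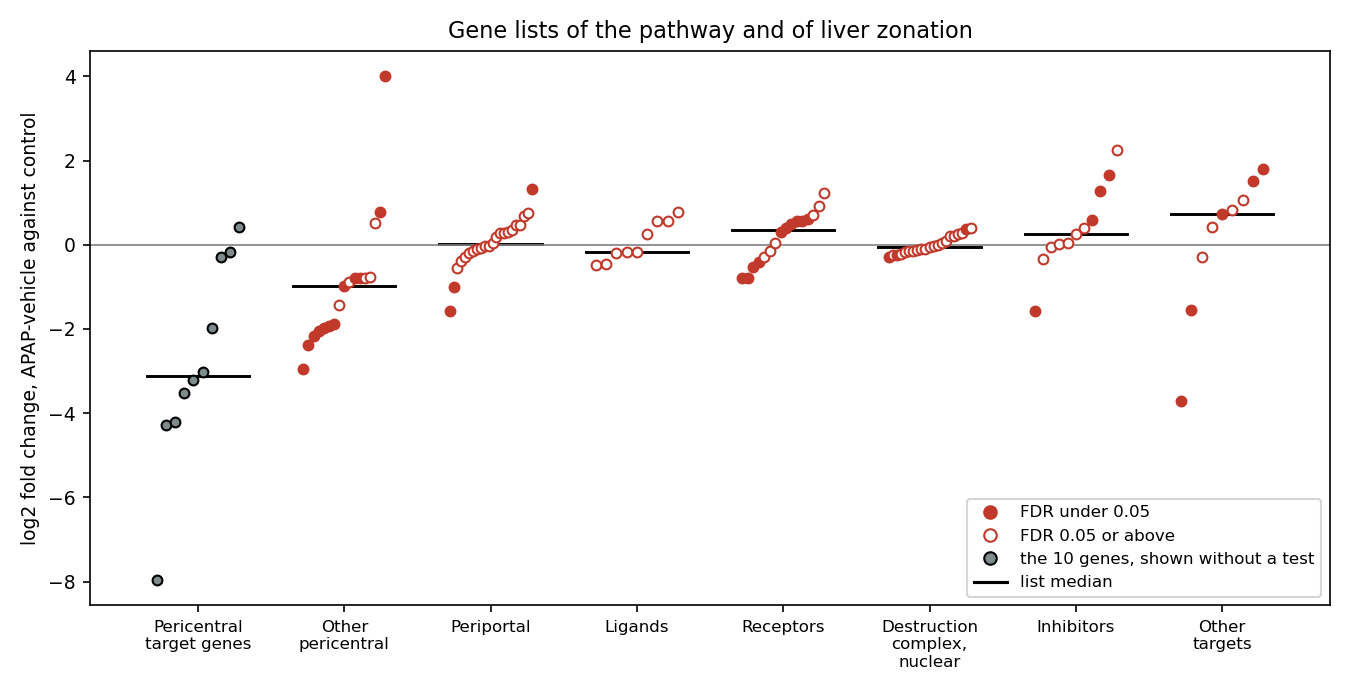
The log2 fold change of each tested gene in APAP-vehicle (n = 5) against control (n = 3) livers, by list, with filled red points for an FDR under 0.05, open points for others, grey points for the 10 genes, given without a test, and a line at each list's median. The list medians are -3.11 for the 10 genes, -0.99 for other pericentral genes and 0.01 for periportal genes; the lists, too, were chosen with earlier results of these data known, and library size alone moves the median of all genes to 0.36.

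The genes most like Glul and Slc1a2 across the 9 APAP livers were sought by the root mean square difference of their log2 change from control, among tested genes whose log2 CPM averaged 2 or more. Closest to Glul were Tifa at 0.591, Saa1 at 1.03 and Steap4 at 1.33, with Rhbg at 0.915 and Oat at 1.03 among the 10 genes themselves. Tifa had 112 CPM in control, 7.16 to 11.8 CPM with vehicle and 6.83 to 10.8 CPM with hAAMs. Leaving out the near-identical livers kept 1 of these 3 genes. Closest to Slc1a2 were Saa3 at 2.68, Saa2 at 2.86 and Saa1 at 3.30, acute phase genes of the liver. The Saa1 and Saa2 sequences are near-identical copies that can exchange reads. Saa3 had 191 CPM in control, 2.17 to 5.75 CPM with vehicle and 9.06 CPM in APAP-hAAM replicate 3. Saa1 had 5016 CPM in control, 38.0 to 330 CPM with vehicle and 799 CPM in that liver, the highest of the APAP livers. Saa2 had 5891 CPM in control and at most 544 CPM in the APAP livers. These acute phase genes were thus highest in control livers, the baseline of every change from control given here. Why they were high there was not tested.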

How the data were processed

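Frozen mouse liver in 12 samples was measured by bulk RNA sequencing after ribosomal RNA depletion. The deposited values are raw counts per Ensembl gene, not normalized. The authors trimmed reads with cutadapt 4.6, aligned them with STAR 2.7.1a to GRCm38 and counted them per gene, per the submitters' processing notes and the methods. Every gene of the table has a total of at least 15 counts. Symbols, coordinates and exon lengths came from GENCODE vM21 and promoter windows from RefSeq, both on GRCm38. Groups were taken from the sample labels. Genes with low counts were removed by filterByExpr, counts were scaled by TMM, and 1 quasi-likelihood model (edgeR 4.0.16, R 4.3.3, robust estimation off) was fitted to all 12 livers, with two-sided tests and Benjamini-Hochberg adjustment over 22581 genes and an FDR threshold of 0.05. The common biological coefficient of variation was 0.214. SE values were derived from the F statistic, and log2 CPM used a prior count of 2. DESeq2 1.42.0, other scalings and filters, a replicate block, fits of only the groups compared, and fits without single livers were alternatives.

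The genes and all lists were chosen with earlier results of these data known. List genes were named by rule: of those past the threshold whose log2 CPM averaged 1 or more, the 2 largest rises and the 2 largest falls with vehicle, plus genes named whatever their change. T or NK cell, B cell, neutrophil and cholangiocyte markers had 0 genes called against control under TMM (library size alone called 2 cholangiocyte and 1 neutrophil markers higher with vehicle, and 1 cholangiocyte marker with hAAMs, as TMM did without APAP-hAAM replicate 3), and of 3 red cell markers tested, 2 were higher and 1 lower with vehicle. The script was tested on simulated data. Labels name no shared source for livers of a group, so p-values measure the spread between these samples, a pair of which may not be separate animals. The extract protocol names 14 libraries, of which 12 were analysed here.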

Additional observations from a re-analysis of the deposited data

Results flagged for a closer look

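In 3 of 20 sets of values tested (10 genes in each of the APAP groups), 1 liver lay far from the rest of its group by Dixon's ratio, and it was APAP-hAAM replicate 3 each time. Its Slc1a2 level was 42.9 CPM, with the next liver of the group at 2.37 CPM. Its Oat level was 125 CPM against 43.7 CPM in the next liver, and its Lgr5 level was 5.56 CPM against 2.46 CPM. Chance gives such a value in about 1 in 20 sets, and the 3 values come from the same library and are not independent. The liver's marker levels are given beside the results, and their part was not tested.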

How the results depend on the processing

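The counts of the 10 genes called against control rest on the contrast that named them, so their ranges are no sign of stability. With 1 liver left out, the count with hAAMs lay from 6 to 7. There Slc1a2 was lost without any 1 of the control livers or APAP-hAAM replicates 1, 2 or 4, and Rnf43 was gained without control replicate 1. Between the treatments 0 of the 10 genes and 0 list genes were called in each of the 12 fits with 1 liver left out. A fit of only the control and APAP-hAAM livers called 6 of the 10 genes, without Slc1a2. The 37 list genes called with vehicle became 23 with a replicate block and 22 to 38 with 1 liver left out, lowest without control replicate 1. The 25 called with hAAMs became 15 with the block, 16 in a fit of only those groups, and 9 to 27 with 1 liver left out, lowest without control replicate 3, with 14 without control replicates 1 or 2 and 15 without APAP-hAAM replicate 2. The cause was not tested. In the treatment comparison, Tbx3 turned to 0.043 with the block. With 1 liver left out, it lay from -0.60 to 0.18, Znrf3 from -0.13 to 0.047, Axin2 from -0.069 to 0.27 and Glul from -0.092 to 0.23, changing sign. Replicate numbers did not pair livers, since 3 of 10 same-numbered pairs had a correlation over 0.1 (range -0.458 to 0.385), and 2 livers matched their own number best. At least 10 counts in every liver left 18537 genes and 9 of the 10 members, without Rhbg. At 3 to 10 counts after APAP, depth limits Rhbg, and it limits Slc1a2 in livers with 19 counts.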
